A study of Rattus norvegicus with 15 samples.

Results

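The neurofilament and fast-firing neuron genes are a set of 10 genes whose transcripts varied together from rat to rat in the ventral tegmental area (VTA), a part of the midbrain whose dopamine cells send axons to the striatum and frontal cortex. The set holds Nefh, Nefl, Nefm, Scn4b, Pvalb, Spp1, Lgals1, Cbln1, Tesc and P2rx6. They were chosen by their log2 values on these same arrays, by how closely they rose and fell together from array to array within the groups and by the ethanol and water values. Their covariation and spread are therefore a description, and no test was made of them. The members are all probe sets, the groups of short DNA probes that stand for a transcript on an Affymetrix array, that the platform annotation names with a single symbol among these. This gave 12 probe sets for the 10 genes, of 31042 probe sets and 14224 singly named genes in all. Nefl and Cbln1 have a pair of probe sets each, and the brighter stands for the gene unless stated otherwise.

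Tissue came from 7 rats given ethanol and from 8 rats given water, with 1 array per animal. By its title the series is about P rats, a line selected for preferring alcohol, after drinking with loss of control. Its design text mentions high-drinking and low-drinking lines, and the labels separate the animals only as ethanol or water. RNA input was 25 ng, amplified in 2 cycles. Age, sex, litter, drinking schedule and the interval between drinking and tissue collection are not stated, and ethanol rat 3 was not analysed here. The values are log2 intensities deposited by the authors, on which a difference of 1 unit is a doubling. Levels of different probe sets were not compared, because each has probes of its own. Tyrosine hydroxylase, encoded by Th, catalyses the slowest step in making dopamine. Th had mean log2 levels of 14.94 ± 0.22 in ethanol rats and 14.80 ± 0.26 in water rats (SD, n = 7 and n = 8). No other region was measured, so these levels do not check the tissue label.

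Neurofilaments are the intermediate filaments of axons. The light, medium and heavy chains, encoded by Nefl, Nefm and Nefh, assemble into the filaments that set axon calibre, and they are abundant in large, long-range projection neurons. Neurons that fire fast and steadily use sodium currents that recover quickly, potassium channels that end each spike promptly and strong calcium buffers. In the midbrain such neurons are found in the red nucleus and the reticular part of the substantia nigra, which lie beside the VTA, while dopamine neurons fire slowly.

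RefSeq promoter windows of the GRCr8 assembly were at hand for 5 of the 10 genes (Scn4b, Pvalb, Spp1, Tesc and P2rx6). The 250 bases before the annotated start of 3 of them are printed so that the upstream sequences of genes that moved together can be set side by side. Capitals mark the motifs searched for on both strands, which were the TATA box TATAAA, the GC box GGGCGG bound by Sp1-type factors, the E-box CACGTG bound by basic helix-loop-helix factors, and AAGGTCA, bound by estrogen-related receptors such as the product of Esrrg. None of these motifs overlapped another in the 5 windows.
Scn4b, chr8:54343623-54343872, plus strand: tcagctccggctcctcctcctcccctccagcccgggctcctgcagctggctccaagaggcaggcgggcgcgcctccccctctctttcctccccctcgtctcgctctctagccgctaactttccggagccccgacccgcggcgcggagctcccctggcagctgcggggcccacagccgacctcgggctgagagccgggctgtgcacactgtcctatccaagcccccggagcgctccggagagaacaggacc
Pvalb, chr7:111666290-111666539, minus strand: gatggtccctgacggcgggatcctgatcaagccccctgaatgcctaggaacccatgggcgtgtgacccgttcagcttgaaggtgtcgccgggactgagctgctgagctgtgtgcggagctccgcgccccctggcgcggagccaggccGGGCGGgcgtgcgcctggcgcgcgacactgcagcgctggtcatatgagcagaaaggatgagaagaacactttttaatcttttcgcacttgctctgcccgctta
Spp1, chr14:5619805-5620054, minus strand: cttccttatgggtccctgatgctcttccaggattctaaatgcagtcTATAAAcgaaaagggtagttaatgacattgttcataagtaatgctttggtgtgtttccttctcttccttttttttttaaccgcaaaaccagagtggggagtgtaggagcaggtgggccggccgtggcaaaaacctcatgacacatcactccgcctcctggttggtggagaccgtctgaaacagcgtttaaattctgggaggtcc

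Bases G and C made up 71.6% of the Scn4b window, 62.8% of the Pvalb window and 46.8% of the Spp1 window, and the median over all 33469 windows of this length was 51.2%. The Tesc window held 71.2% and the P2rx6 window 52.4%. The dinucleotide CG occurred 21 times in each of the Scn4b and Pvalb windows 7 times in that of Spp1, 32 times in that of Tesc and 3 times in that of P2rx6, and the median over all windows was 5. GGGCGG was found in the Pvalb window (on the printed strand, from base -103) and the Tesc window (on the opposite strand, from base -105), or 2 of 5, and in 30.5% of all windows. TATAAA was found in the Spp1 window only, from base -204, and in 12.9% of all windows. The E-box was in 0 of the 5 windows and in 5.59% of all windows, and the estrogen-related receptor motif in 0 of the 5 and in 3.99% of all. No motif of the 4 was in more than 2 of the 5 windows. These matches describe letters in a window and are not binding sites.

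The 3 neurofilament genes had nearly the same profile over the rats. Nefh, the heavy chain, had log2 levels of 13.34, 12.75, 14.47, 14.07, 14.76, 12.05 and 14.23 in ethanol rats 1, 2, 4, 5, 6, 7 and 8. It had 12.10, 14.87, 12.36, 14.18, 11.85, 14.49, 15.18 and 14.93 in water rats 1 to 8. Ethanol rats 7, 2 and 1 and water rats 5, 1 and 3 were the lowest of all, and all 7 ethanol values lay inside the range of the water rats.

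Nefl, the light chain that forms the core of the filament, ran from 12.57 through a median of 14.51 to 14.95 in ethanol rats, and from 12.08 through 14.84 to 15.33 in water rats. Nefm, the medium chain, ran from 12.54 through 14.03 to 14.56 in ethanol rats, and from 11.85 through 14.39 to 15.15 in water rats. The lowest ethanol rat was number 7 and the lowest water rat number 5 in all 3 genes. Between the lowest and highest of the 15 rats, the level differed 10.05-fold for Nefh, 9.51-fold for Nefl and 9.88-fold for Nefm. The second Nefl probe set spanned 2.02 log2 units against 3.25 for the brighter, with Pearson r = 0.974 between their group-centred values, that is, values minus the mean of their group.

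Scn4b encodes the beta-4 subunit of voltage-gated sodium channels, which is linked to the resurgent current that supports fast firing. Its log2 levels were 9.77, 8.88, 10.83, 10.20, 11.19, 8.18 and 10.63 in ethanol rats 1, 2, 4, 5, 6, 7 and 8. They were 7.98, 11.49, 8.93, 10.98, 7.86, 10.95, 11.74 and 11.95 in water rats 1 to 8. The same rats were low as for the neurofilaments, and the span over all rats was 17.1-fold. Pvalb encodes parvalbumin, a calcium buffer of fast-firing neurons, and ran from 8.97 through a median of 10.42 to 11.31 in ethanol rats, and from 9.38 through 11.19 to 11.90 in water rats. In Pvalb, water rats 1, 3 and 5 lay close together and below the other 5 water rats.

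Spp1, which encodes the secreted phosphoprotein osteopontin, varied more than any other member. Its log2 levels were 11.67, 10.59, 13.17, 12.57, 13.33, 9.02 and 12.97 in ethanol rats 1, 2, 4, 5, 6, 7 and 8. They were 8.27, 13.87, 8.07, 13.08, 8.21, 13.18, 14.08 and 13.90 in water rats 1 to 8. Water rats therefore fell into 3 low and 5 high animals with nothing between, whereas 5 of the 7 ethanol rats (1, 2, 5, 7 and 8) lay between those low and high animals. The span was 6.01 log2 units, or 64.5-fold, which ranked 3 among the 18625 probe sets kept for testing.

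Lgals1, which encodes the sugar-binding protein galectin-1, ran from 9.32 through a median of 11.11 to 11.90 in ethanol rats, and from 9.01 through 11.59 to 12.68 in water rats. Cbln1 encodes cerebellin-1, a secreted organizer that joins neurexins to delta glutamate receptors across the synapse. It ran from 9.21 through 10.36 to 11.23 in ethanol rats, and from 9.08 through 10.96 to 12.11 in water rats. In both genes the ethanol range lay inside the water range. The pair of Cbln1 probe sets had r = 0.996 between them.

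Tesc encodes tescalcin, a calcium-binding protein known as a partner of a sodium-proton exchanger, and ran from 7.62 through a median of 8.84 to 9.49 in ethanol rats, and from 7.65 through 9.09 to 10.15 in water rats. P2rx6 encodes a subunit of ATP-gated P2X channels. It ran from 6.09 through 7.30 to 7.73 in ethanol rats, and from 5.79 through 7.50 to 8.46 in water rats. All 12 member probe sets passed the filter on dim probe sets, a mean over all arrays of at least 6.94 log2 units. P2rx6 lay close to that level, and its value was under it on the 6 arrays with the lowest neurofilament values.

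**Figure D1:**
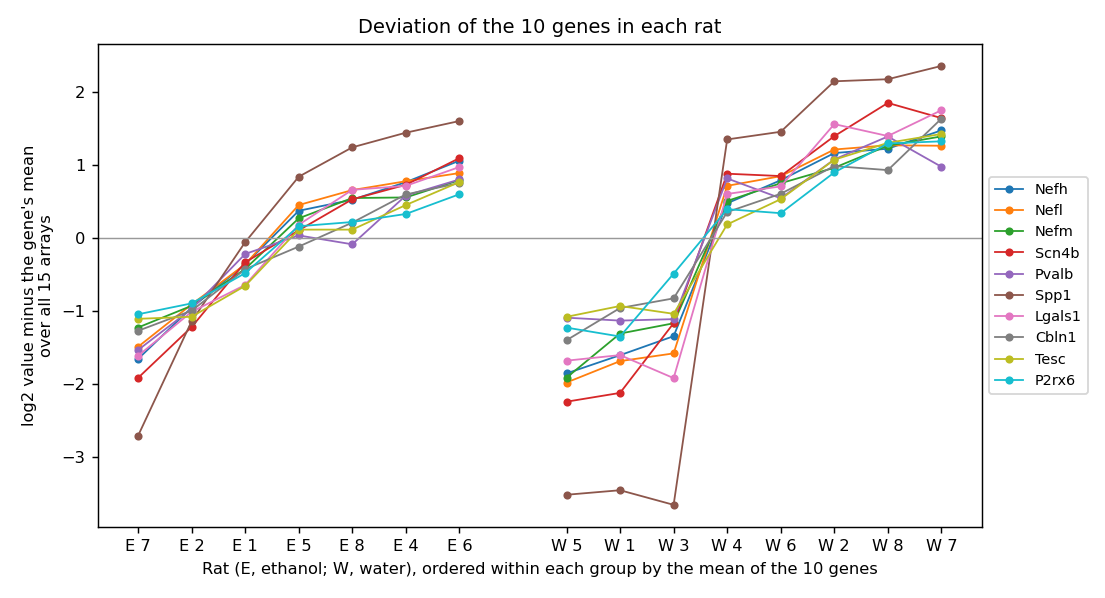
Each line is a gene and each point a rat, with the log2 value minus that gene's mean over all 15 arrays on the vertical axis and the rats ordered within the ethanol group (left) and the water group (right) by the mean of the 10 genes. The lines run nearly together, Spp1 has the widest span at 6.01 log2 units, and water rats 5, 1 and 3 sit apart from the other 5.

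The 10 genes followed each other closely within each group. The mean Pearson r over the 45 pairs of genes was 0.975 in the 7 ethanol rats (from 0.924 to 0.995) and 0.974 in the 8 water rats (from 0.936 to 0.996). With ranks in place of values, the mean Spearman rho was 0.992 in ethanol rats and 0.917 in water rats. Over both groups, with values centred on their group mean, the mean r was 0.973. Nefh and Nefl were the closest pair at 0.994, and Spp1 and P2rx6 the most distant at 0.943. These pairs share arrays, dissection and labelling, and the genes were chosen for this likeness.

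An average over the 10 genes, taken as each gene's deviation from its mean over all arrays, placed the 15 rats in an order from -1.80 log2 units in water rat 5 to 1.52 in water rat 7. The widest gap in that order, 0.637 units, lay between ethanol rat 1 at -0.40 and ethanol rat 5 at 0.24, and split the arrays into 6 below and 9 above. The 6 arrays below were 3 ethanol rats (7, 2 and 1) and 3 water rats (5, 1 and 3). A gap nearly as wide, 0.614 units, lay within them, between ethanol rats 2 and 1. The 6 arrays had the lowest values in all 12 probe sets. Because arrays on either side of a gap raise a correlation, it was computed on each side as well. Over the 9 arrays above the gap the mean r between members was 0.881 (from 0.597 to 0.988), and over the 6 below it 0.786 (from 0.195 to 0.995). Pvalb followed the average least closely among the 9 upper arrays, at 0.775, while the other 9 genes had r from 0.923 to 0.986.

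The members were among the most variable transcripts of these arrays. Their within-group SD ran from 0.685 to 2.35 log2 units, against a median of 0.111 and a 95th percentile of 0.255 over the 18625 kept probe sets, and the least variable of them ranked 57. The first principal component of the group-centred values, the single pattern that carries most of the variation between arrays, held 32.4% of it, and the second held 14.2%. The average of the 10 genes correlated with the first component at r = 0.965, and Spp1 had its largest loading. The component was computed over all kept probe sets, the highly variable members included, so this r is partly built in. The 3'-minus-5' difference of control transcripts, a sign of RNA quality, lay between 0.989 and 1.20 log2 units on all arrays, with r = -0.12 to the average of the 10 genes. Array medians lay between 9.22 and 9.29 with r = -0.64 to that average, and their part in the variation was not tested.

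The ethanol and water rats overlapped in every member. Of the 12 probe sets, 0 passed limma's test across all kept probe sets at an adjusted p of 0.05, 0 had an unadjusted p under 0.05, and 0 had groups that did not overlap. Among all 18625 kept probe sets, 0.929% passed, 12.1% had an unadjusted p under 0.05 and 0.623% did not overlap. A fit with a trended, robust variance also called 0 members. The choice of the members used these same arrays, so the counts describe the genes and support nothing further. The adjusted p of limma ran from 0.757 for Tesc to 0.998 for Nefl.

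Nefh averaged 13.67 ± 0.99 log2 units in ethanol rats and 13.74 ± 1.40 in water rats (SD, n = 7 and n = 8), a difference of -0.076 with a standard error (SE) of 0.57. Nefl differed by -0.006 (SE 0.58) and Nefm by -0.12 (SE 0.51). Scn4b averaged 9.95 ± 1.09 in ethanol rats and 10.24 ± 1.70 in water rats, a difference of -0.28 (SE 0.67). The spread within each group was several times the difference in each of these genes.

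Pvalb differed by -0.38 (SE 0.45), Tesc by -0.38 (SE 0.43), Cbln1 by -0.34 (SE 0.44), P2rx6 by -0.31 (SE 0.41) and Lgals1 by -0.21 (SE 0.62). Spp1 was the only member with a higher mean in ethanol rats, 11.90 ± 1.598 against 11.59 ± 2.84 in water rats, a difference of 0.32 (SE 1.08). Without water rat 1, 3 or 5 it was between -0.18 and -0.16. The median difference of the 10 genes was -0.24, and that of all kept probe sets 0.006. The average of the 10 genes was -0.095 ± 0.93 in ethanol rats and 0.084 ± 1.45 in water rats. Their difference, -0.18, ran from -0.45 to 0.07 with 1 array left out, and was above 0 without ethanol rat 7 (0.07), water rat 7 (0.03) or water rat 8 (0.01).

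**Figure D2:**
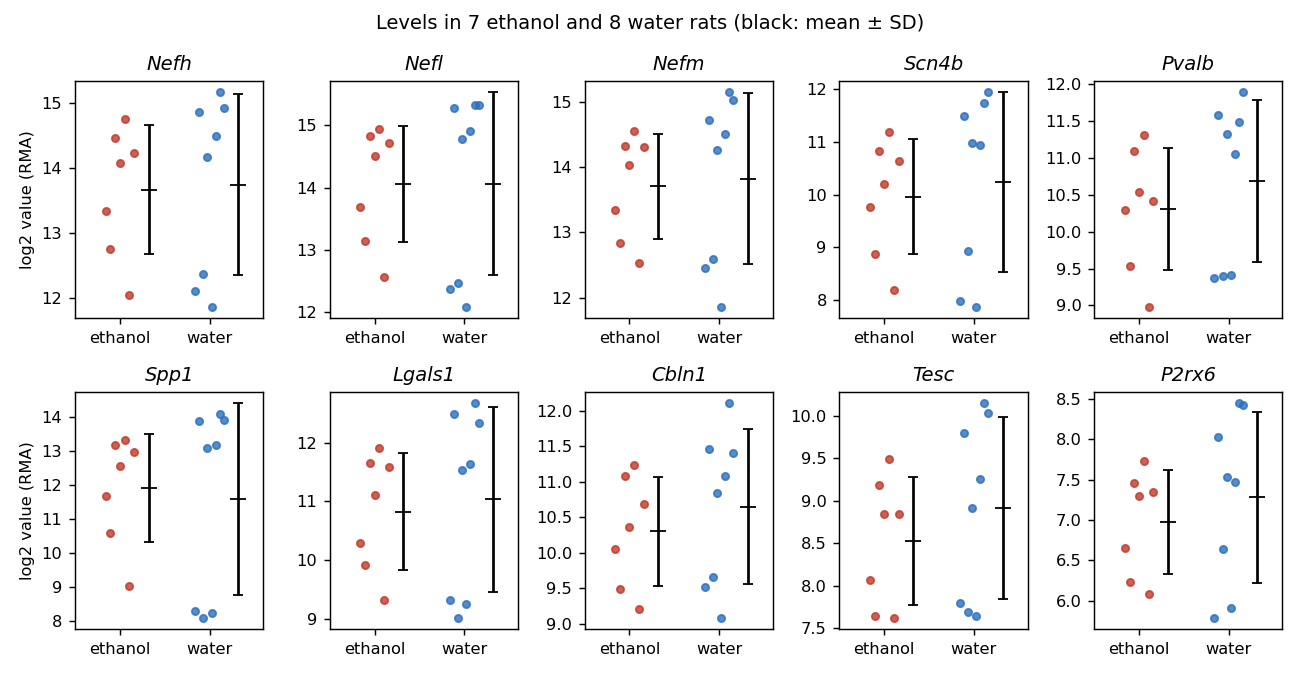
Each panel shows the log2 values of a gene in ethanol rats (red, left) and water rats (blue, right), with the mean ± SD in black. The groups overlap in all 10 genes, and the water rats of Spp1 form a low group of 3 and a high group of 5.

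Genes that shape fast firing and fast release were examined next, in a list of 28 channels, release proteins and regulators. Of these, 24 had a probe set and 20 a kept one. None passed the group test in either direction by limma, and 0 had an unadjusted p under 0.05, with a median difference of -0.12. Many followed the 10 genes. Their median r with the average of the 10 genes was 0.834, and 11 of 20 reached 0.7, against a median of -0.15 and a share of 7.88% over the other 18613 kept probe sets. At the other end, 4 of 20 were at or below -0.7, against 5.61% of those probe sets. The list was drawn up with earlier results of these data known. These values, over 15 group-centred arrays, therefore describe likeness and carry no test.

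Vamp1, a synaptobrevin of fast-releasing terminals, had the highest r of the list at 0.973, and its log2 level ran from 12.03 through 12.57 to 13.19 in ethanol rats and from 12.07 through 12.98 to 13.61 in water rats. Cplx1, a complexin that clamps and triggers release, had 0.967, and the nuclear receptor Esrrg 0.961. Among potassium channels, the Kv1 subunits Kcna1 and Kcna2 had 0.941 and 0.958, and the Kv3 subunits Kcnc1 and Kcnc2, which end spikes quickly, had 0.912 and 0.949. Kcnc4, of the same Kv3 family, had 0.003, and Kcna6 had -0.81. Kcnab1, an accessory Kv1 subunit, had 0.945. Among the 9 arrays above the gap, Kcna1, Kcna2, Kcnc1 and Kcnc2 had r from 0.881 to 0.939, and among the 6 below it from 0.457 to 0.783. Kcnc4 had 0.658 above and -0.469 below the gap, and Kcna6 -0.494 and -0.312.

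Sodium channel genes split. Scn1a, the pore subunit Nav1.1 of fast-firing neurons, had r = 0.943 and spanned 1.29 log2 units. Scn2a, which encodes Nav1.2, had r = -0.92 and spanned 0.517. The accessory subunits Scn2b and Scn3b had -0.82 and -0.74, opposite in sign to the member Scn4b. On the upper and lower sides of the gap, Scn1a had r = 0.910 and 0.794, while Scn2a had -0.82 and 0.006. Scn8a and Syt2 lay under the filter, with r = 0.774 and 0.804, as did Kcnab3 and Kcns1, with 0.394 and 0.324.

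**Figure D3:**
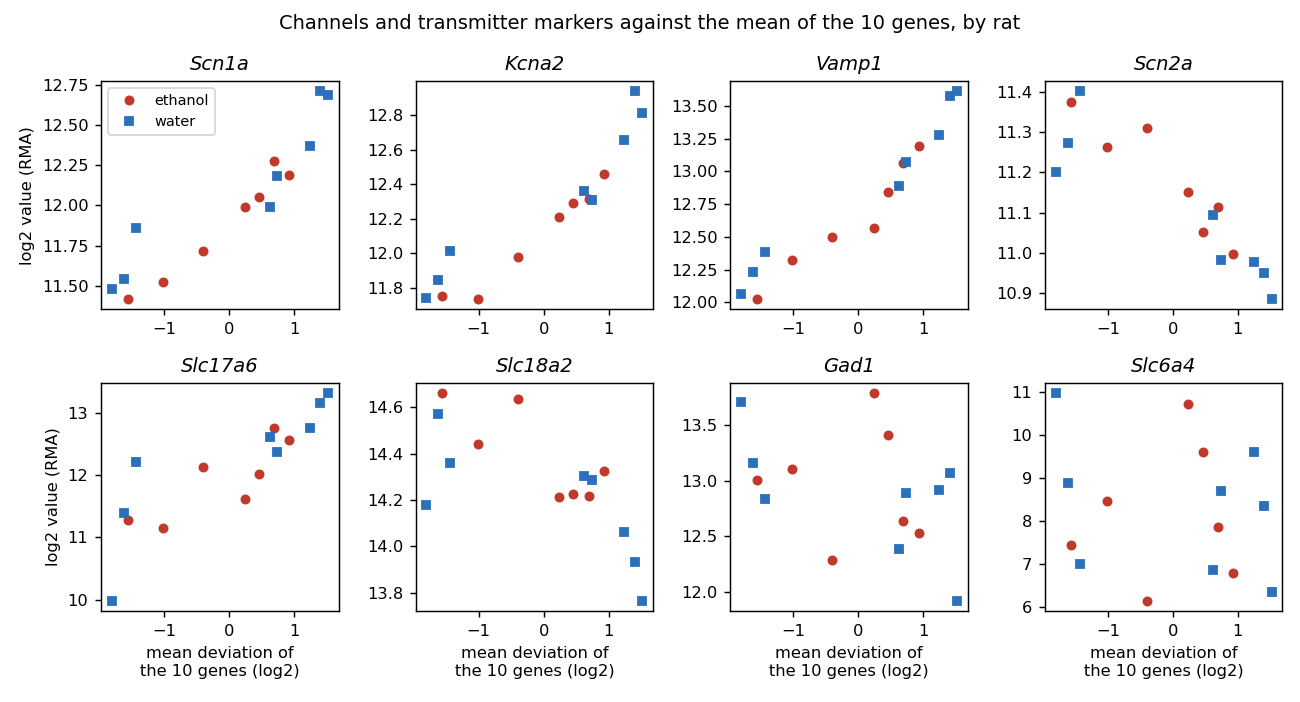
Each panel sets the log2 value of a gene (vertical axis) against the mean deviation of the 10 genes (horizontal axis, log2 units), with ethanol rats as red circles and water rats as blue squares. Scn1a, Kcna2 and Vamp1 rise along the axis, Scn2a falls, Slc17a6 rises with more scatter, Slc18a2 is lowest in water rats 7 and 8, and Gad1 and Slc6a4 scatter.

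The list of cytoskeleton and axonal transport genes gave a mixed picture. Of 22 genes, 21 had a kept probe set, and 1 passed the group test. Nfasc, which encodes the node and paranode protein neurofascin, fell by 0.29 log2 units in ethanol rats (SE 0.04, limma's adjusted p = 0.00171), and 0.542% of all kept probe sets were called lower. Its r with the average of the 10 genes was 0.187. The median r of the list was 0.677, and 10 of 21 reached 0.7.

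The other intermediate filament genes of neurons followed the set: Ina, which encodes alpha-internexin, had r = 0.933 and Prph, which encodes peripherin, had 0.886. Prph followed less closely in ethanol rats (0.644) than in water rats (0.961), and had 0.457 among the 6 lower arrays. Sncg, a synuclein of large projection neurons, had r = 0.953 and spanned 2.61 log2 units, though among the 6 lower arrays its r was 0.060. Map1b, a microtubule protein of axons, had 0.902 but spanned only 0.416. Mapt, which encodes tau, and Gap43, a growth-associated protein, went the other way at -0.79 and -0.73. Among the 9 arrays above the gap their r was -0.15 and -0.49.

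Most relatives and partners of the members did not follow them. Of 24 listed genes, 19 had a probe set and 9 a kept one, with a median r of 0.014, none at or above 0.7 and Nrxn3, a neurexin, at -0.77. None passed limma's group test. Itgb1, an integrin subunit and so a possible osteopontin receptor chain, was the only gene with an unadjusted p under 0.05 (difference -0.19, SE 0.05, adjusted p = 0.0908). The other cerebellin measured, Cbln2, had r = 0.538, and the calcium buffers Calb1 and Calb2 had -0.36 and -0.555. The galectin Lgals8 had 0.653, the highest of the kept genes, and Lgals9 had 0.245. The integrin subunits Itgb1 and Itgav had 0.034 and 0.014. Cd44, Itgb3 and Lgals3, all under the filter, had 0.606, -0.567 and -0.085. The P2X subunit P2rx4 had -0.095. Under the filter, P2rx5 had 0.807 and P2rx1 0.767, while P2rx2 had -0.489, P2rx3 -0.077 and P2rx7 -0.111. P2rx1 had only 0.098 among the 9 arrays above the gap, and P2rx5 had -0.0555 among the 6 below it.

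Markers of neuron types were set beside the 10 genes, since in a tissue sample fewer cells of a type and less RNA per cell cannot be told apart. Slc17a6, the vesicular glutamate transporter of midbrain glutamate neurons, had r = 0.849. Its log2 levels were 12.14, 11.15, 12.76, 11.62, 12.55, 11.28 and 12.01 in ethanol rats 1, 2, 4, 5, 6, 7 and 8. They were 11.40, 12.75, 12.20, 12.60, 9.98, 12.37, 13.31 and 13.15 in water rats 1 to 8. Water rat 5, the lowest in the 10 genes, was also the lowest in Slc17a6, and water rats 7 and 8, the highest, were the highest. The order differed in between. Water rat 3, below the gap, had 12.20, above the 11.62 and 12.01 of ethanol rats 5 and 8, which lay above the gap.

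Pou4f1, a transcription factor that marks neurons of the red nucleus and other sites, was dim and lay under the filter in these arrays, from 5.22 through 5.74 to 6.12 in ethanol rats and from 5.08 through 6.14 to 6.79 in water rats, with r = 0.939. Of the 6 glutamate neuron markers, 2 had a kept probe set, and the mean of these ran from 10.80 to 11.65 log2 units in ethanol rats and from 10.19 to 11.97 in water rats. The other kept marker, Tcf7l2, had r = 0.014, and Slc17a7, a glutamate transporter under the filter, had -0.21. Tcf7l2 had 11.68 log2 units in ethanol rat 5 and 10.36 to 10.46 in the other ethanol rats, so 1 array weighs heavily in its r. Ethanol rat 5 also had the highest mean of the 2 kept markers among ethanol rats. None of the 2 passed the group test, with 0 at an unadjusted p under 0.05 by limma. The part of these markers in the variation of the 10 genes was not tested.

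GABA neuron markers did not follow the set. The 8 kept of 10 had a median r of -0.47, from -0.565 for Tal1 to 0.110 for Npy, and Gad1 had -0.41. Their mean ran from 9.96 to 10.76 log2 units in ethanol rats and from 9.78 to 10.68 in water rats. None passed limma's group test, and 1, the peptide Sst, had an unadjusted p under 0.05 (difference 0.37, SE 0.14). Of 9 markers of cholinergic and motor neurons, 7 had a probe set, all under the filter. Chat, the enzyme that makes acetylcholine, had r = 0.100, Slc18a3 had 0.286 and Slc5a7 0.435. Slc5a7 had -0.48 among the 9 arrays above the gap. The r of the remaining markers of this list is not given here, so the list is not summed up.

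Dopamine neuron markers tended to run the opposite way, as the GABA, microglial and oligodendrocyte lists also did. Of 16 markers, 12 had a kept probe set, with a median r of -0.53, from -0.74 to 0.370, and 3 at or below -0.7, against 5.61% of all other kept probe sets. Those 3 were the vesicular transporter Slc18a2 (-0.74), Gch1 (-0.71), which makes the cofactor of Th, and the dopamine transporter Slc6a3 (-0.70). Th had -0.52. Slc18a2 ran from 14.21 through 14.32 to 14.66 log2 units in ethanol rats, and from 13.76 through 14.23 to 14.57 in water rats. Its span of 0.895 was smaller than that of every member. Among the 6 lower arrays its r was 0.081, against -0.71 among the upper 9. No dopamine marker passed limma's group test, and 1 had an unadjusted p under 0.05, Gch1 (difference 0.33, SE 0.15). The mean of the 12 ran from 12.16 to 12.81 log2 units in ethanol rats and from 11.93 to 12.62 in water rats. Its r with the average of the 10 genes was -0.423. The means of the GABA, microglial and oligodendrocyte lists had r of -0.47, -0.478 and -0.428.

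The serotonin transporter Slc6a4, the only kept gene of 4 serotonin neuron markers, varied widely on its own. It ran from 6.14 through 7.86 to 10.70 log2 units in ethanol rats and from 6.35 through 8.52 to 10.96 in water rats, with r = -0.18 to the 10 genes. Its highest values were in ethanol rat 5 and water rat 5, which lay on opposite sides of the gap. The difference between groups was -0.19 (SE 0.72) and did not pass.

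Glial and vascular markers had list medians of r from -0.42 to 0.056. Oligodendrocyte and myelin genes had a median r of -0.38 over 12 kept genes. Of these, 4 passed limma's group test, all lower in ethanol rats, and 8 had an unadjusted p under 0.05. Microglial genes had a median r of -0.42 over 13, of which 5 passed, all higher in ethanol rats, and 10 had an unadjusted p under 0.05. Of all kept probe sets, 0.542% were called lower, 0.387% were called higher and 12.1% had an unadjusted p under 0.05. No gene of these lists reached 0.7 in either direction. Astrocyte genes had a median of -0.13 over 10 and endothelial and mural genes 0.056 over 9, and none of them passed limma's group test, with 3 and 0 at an unadjusted p under 0.05. Of 6 kept genes of meninges and fibroblasts, Igfbp2, a secreted binder of insulin-like growth factors, had r = 0.927, and the other 5 lay between -0.492 and -0.145. None of the 6 passed the group test, with 2 at an unadjusted p under 0.05.

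Lgals1 and Spp1 can also be made by microglia and connective tissue cells. The 13 microglial markers had r from -0.57 for P2ry12 to 0.489 for Trem2 with the 10 genes, and Trem2 had -0.35 among the upper 9 arrays and -0.20 among the lower 6. Of the fibroblast markers, Col1a2 had -0.39 and Dcn -0.15. The mean of the microglial list ran from 9.38 to 9.645 log2 units in ethanol rats and from 8.98 to 9.41 in water rats. That of the fibroblast list ran from 9.16 to 9.965 in ethanol rats and from 9.43 to 10.15 in water rats. Their part in the levels of Lgals1 and Spp1 was not tested. The 3 called microglial genes with the smallest p, Gpr34, Tyrobp and Trem2, were higher in ethanol rats by 0.89, 0.41 and 0.32 log2 units. Of the myelin genes, Ugt8, which makes a myelin lipid, fell by 0.69 and Fa2h by 0.43.

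**Figure D4:**
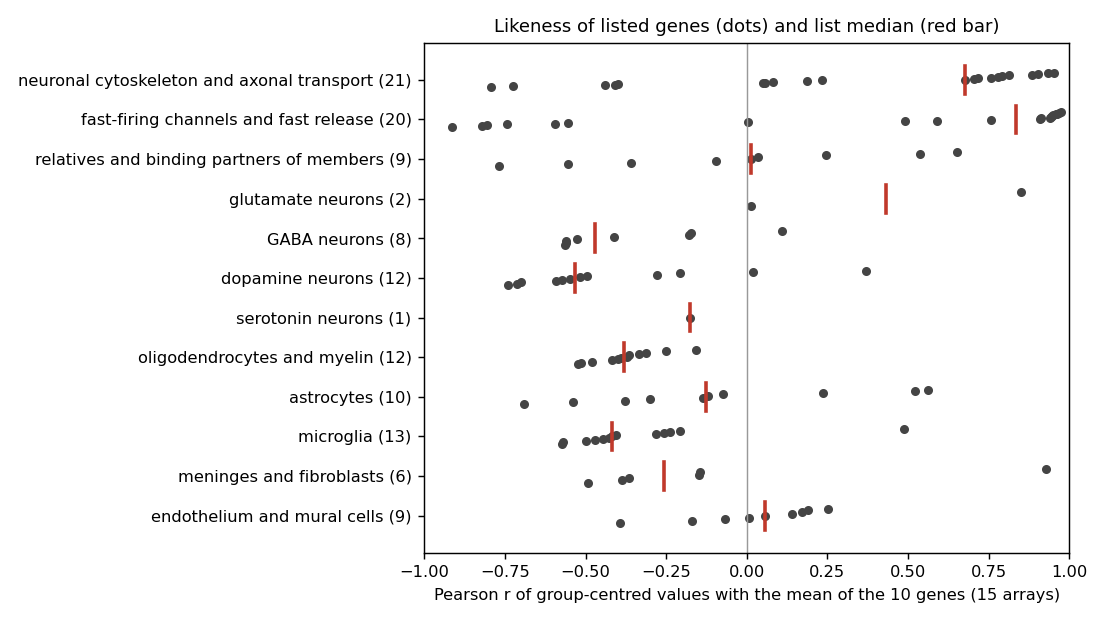
Each dot is a kept gene of the list named on the left, with the number of kept genes in brackets, placed by the Pearson r of its group-centred values with the average of the 10 genes over 15 arrays, and the red bar is the list median. The median is 0.834 for fast-firing genes, -0.53 for dopamine neuron markers, -0.47 for GABA neuron markers, -0.42 for microglia and -0.38 for oligodendrocytes and myelin.

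The genes nearest in pattern were sought among 10170 named genes outside the set. Hapln4, which encodes a link protein of the perineuronal nets around fast-firing neurons, was first with r = 0.984 (0.990 in ethanol rats and 0.983 in water rats), and spanned 1.86 log2 units. The next were Rimkla (0.976), which makes the peptide transmitter N-acetylaspartylglutamate, the heme-binding protein Hebp2 (0.976), Cables2 (0.975), the large scaffold Ahnak2 (0.974) and Vamp1. They were followed by Gas6 (0.972), a ligand of TAM receptors, the metalloreductase Steap2 (0.972), Paqr9 (0.972), the annexin Anxa6 (0.971), Ccdc92 (0.970) and the BMP signal transducer Smad9 (0.970). All 12 kept an r of at least 0.824 among the 9 upper arrays, with the lowest value in Steap2, and at least 0.707 among the 6 lower ones, with the lowest in Ahnak2. None passed the group test, and the mean of each was lower in ethanol rats.

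In total 185 of the 10170 genes had r of at least 0.9, and 5 had r of -0.9 or less. The 6 most opposed were the chromatin reader Zmynd11 (-0.93), Scn2a, Taf1d (-0.91), the myosin phosphatase subunit Ppp1r12a (-0.91), Taf9b (-0.905) and Ppp1r26 (-0.90). Their spans were small, from 0.231 log2 units in Zmynd11 to 0.662 in Taf9b, so the opposed transcripts changed far less than the members. Among the 6 lower arrays Scn2a, Taf1d, Ppp1r12a and Ppp1r26 had r between -0.10 and 0.472, while among the 9 upper arrays they had r from -0.90 to -0.78. Zmynd11 had -0.75 among the lower arrays and -0.78 among the upper, and Taf9b -0.545 and -0.68.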

How the data were processed

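RNA of the ventral tegmental area was hybridised to Affymetrix rat arrays, 1 per rat. The authors deposited a table of log2 values made by RMA, per the submitters' processing notes, and its software version is not given in the sources used here. Of 31099 probe sets, 57 controls were left out, and 18625 with a mean at or above the 40th percentile (6.94 log2 units) were tested. The annotation gave 20837 probe sets 1 symbol, 425 several and 9780 none. Groups came from the labels. The ethanol minus water difference came from lmFit and eBayes of limma 3.58.1 (R 4.3.3), with Benjamini-Hochberg adjustment over all 18625 and a threshold of 0.05. The code was tested on simulated data. For the group test the simulated noise was independent between probe sets, so it lacked the variation that probe sets share on these arrays. The labels name 1 animal per sample but no litter or batch, so p-values measure the spread between these samples, and the number of arrays limits the precision. Correlations used values centred on their group mean. The genes of the set and the gene lists were chosen with earlier results of these data known. Named were all members, listed genes, and the 12 most alike and 6 most opposed genes. The median SE over tested probe sets was 0.056. Alternatives covered the filter, variance model, array weights, scaling, replicate block, covariates and left-out arrays.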

Additional observations from a re-analysis of the deposited data

Results flagged for a closer look

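In each group of 7 or 8 rats, the gap between an extreme rat and its nearest neighbour was divided by the group's range and set against Dixon's critical value of 0.568 for 7 rats and 0.526 for 8. Of 160 groups of values examined, 4 passed, where chance gives about 1 in 20, and no neurofilament or fast-firing member was among them. Tcf7l2 had 11.68 log2 units in ethanol rat 5 and between 10.36 and 10.46 in the other ethanol rats, a gap share of 0.925. Trem2 had 8.53 in ethanol rat 8 and between 8.16 and 8.25 in the others, a share of 0.755. Gjb6 had 10.92 in ethanol rat 5 and between 11.21 and 11.38 in the others, a share of 0.628. Ctss had 13.25 in ethanol rat 1 and between 13.46 and 13.58 in the others, a share of 0.619.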

How the results depend on the processing

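Of all probe sets, 173 passed limma's test (72 higher and 101 lower in ethanol rats). Leaving out 1 array gave 100 to 180, with 100 without ethanol rat 7 and 102 without ethanol rat 8. The first principal component as a covariate gave 495 (198 higher, 297 lower), and the average of the 10 genes as a covariate, chosen after seeing the data, gave 319 (126 higher, 193 lower), both including all 173. With the replicate block 59 passed (19 higher, 40 lower), 51 of them among the 173. That fit also loses water rat 3, which has no ethanol rat of its number, and leaving out this rat alone gave 130. The labels do not say whether the numbers pair the rats. Same-numbered rats correlated between -0.41 and 0.295 in group-centred values, and 1 of 7 matched its own number best. These correlations cannot exclude a pairing, because the first principal component carries 32.4% of the variation they rest on. Of the members 0 passed, also without any 1 array, but 1, Tesc, did with either covariate. This is no test of Tesc: both covariates are built from group-centred values that include it, so they leave its difference at -0.38 and lower the SE from 0.43 to 0.09 by construction. The mean r between members, 0.973, was 0.950 by Spearman, 0.676 after removing the first component, and, chosen after seeing the data, 0.881 above and 0.786 below the gap. It was 0.970 to 0.976 with 1 array left out. The difference of Spp1 turned to -0.12 with array weights and to -0.18 with the replicate block, which is its value without water rat 3. With 1 array left out, Nefh ran from -0.35 to 0.19, Nefl from -0.29 to 0.24, Nefm from -0.40 to 0.075, Scn4b from -0.62 to 0.015, Spp1 from -0.18 to 0.80 and Lgals1 from -0.50 to 0.044, while Pvalb ran from -0.57 to -0.16, Cbln1 from -0.57 to -0.13, Tesc from -0.56 to -0.21 and P2rx6 from -0.52 to -0.14. P2rx6 has no value under the filter at the 60th percentile. The cause of the other changes was not tested.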
